A study of Homo sapiens with 4 samples.

Results

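The small leucine-rich proteoglycans were followed in HGC-27 cells, an established human gastric carcinoma line, after knockdown of the deubiquitinase USP47. The 10 genes FMOD, LUM, BGN, DCN, ASPN, OGN, PRELP, OMD, PODN and PODNL1 were chosen by symbol and matched to the Ensembl identifiers of the count tables, which held 63568 identifiers, and 9 of the 10 were among the 21932 genes with enough reads to be tested. Polyadenylated RNA was measured by RNA-Seq in 4 libraries, 2 from cells infected with lentivirus carrying a control (scrambled) shRNA and 2 from cells infected with lentivirus carrying USP47 shRNA. Both groups therefore shared the infection, and, per the study's methods, the vector pLKO.1 and selection with puromycin. The sources do not say which of the study's USP47 shRNAs each knockdown library carried, so an effect of the hairpin and an effect of losing USP47 cannot be told apart here.

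Small leucine-rich proteoglycans are secreted proteins of the extracellular matrix whose core is a run of leucine-rich repeats, and many carry chains of chondroitin, dermatan or keratan sulfate. They bind collagen fibrils and set fibril diameter and spacing, and several also bind growth factors such as TGF-β or cell surface receptors. In tissues they are made mainly by fibroblasts and other mesenchymal cells, so in a carcinoma they are usually thought of as products of the stroma.

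Their promoters are shown for 3 members with different outcomes below: FMOD and OGN, which were lower after knockdown, and BGN, the most abundant member, which was not called. RefSeq promoter windows on GRCh38.p14, each from 250 bases before to 50 after a start site, were matched for 7 of the 10 members, in 9 windows. LUM, DCN and OMD were not matched. The windows below run 5′ to 3′ on the strand of the gene, at chr1:203351073-203351372 (minus strand) for FMOD, chr9:92404650-92404949 (minus strand) for OGN and chrX:153494730-153495029 (plus strand) for BGN, and capitals mark the GC box (GGGCGG or its complement CCGCCC) and the TATA word (TATAAA or its complement TTTATA).
FMOD: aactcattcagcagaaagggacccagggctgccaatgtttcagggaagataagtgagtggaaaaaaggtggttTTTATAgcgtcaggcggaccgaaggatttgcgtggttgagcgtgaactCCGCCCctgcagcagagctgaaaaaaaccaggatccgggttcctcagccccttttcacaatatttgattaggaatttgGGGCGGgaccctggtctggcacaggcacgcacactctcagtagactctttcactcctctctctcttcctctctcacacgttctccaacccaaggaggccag
OGN: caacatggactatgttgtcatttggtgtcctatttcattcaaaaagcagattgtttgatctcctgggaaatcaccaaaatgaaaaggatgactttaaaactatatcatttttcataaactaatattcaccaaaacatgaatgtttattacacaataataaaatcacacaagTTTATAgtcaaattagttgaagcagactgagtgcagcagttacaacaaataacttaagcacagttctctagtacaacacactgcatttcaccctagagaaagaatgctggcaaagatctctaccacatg
BGN: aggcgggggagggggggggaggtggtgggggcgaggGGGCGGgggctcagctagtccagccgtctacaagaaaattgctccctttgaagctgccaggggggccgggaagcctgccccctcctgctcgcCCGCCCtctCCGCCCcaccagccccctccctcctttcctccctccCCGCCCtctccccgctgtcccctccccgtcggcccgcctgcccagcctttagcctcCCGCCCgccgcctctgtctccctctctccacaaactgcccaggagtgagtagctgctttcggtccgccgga
The windows differed in base composition, with 52.3% G and C in FMOD, 33.3% in OGN and 71.7% in BGN. FMOD held 2 GC boxes, 129 and 51 bases before the start, and a TATA word 177 bases before it. OGN held a TATA word 79 bases before the start and no GC box, whereas BGN held 5 GC boxes and no TATA word. Another OGN window, for a different start site and not shown, had 38% G and C and the same TATA word 200 bases before its start. Over all 35116 RefSeq windows of this length, 45.0% held a GC box and 11.5% a TATA word on either strand. The E-box CAGGTG, the AP-1 site TGACTCA and the GLI site GACCACCC, searched on both strands, were found in 20.6%, 4.95% and 0.974% of all windows and in none of the members' 9 windows. A word match is a description of these letters and was not tested as a binding site.

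The 4 libraries held between 15649899 and 20140273 counts. Replicates of a group differed by more than sampling noise, with a chi-square per degree of freedom of 4.75 between the control libraries and 16.5 between the USP47 shRNA libraries, so no library was a copy of another. The series calls the replicates biological duplicates, and with 2 libraries a group the p-values rest on a spread estimated across genes. USP47 itself was measured at 80.0 and 66.1 CPM (counts relative to library size, scaled by TMM factors) in the control libraries and at 36.0 and 21.5 in the knockdown libraries. It was thus lower in both knockdown libraries, at 49.3% and 29.5% of the control mean (log2 fold change -1.34 ± 0.21 SE, n = 2 and 2, adjusted p = 0.00362 by edgeR's quasi-likelihood test).

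HGC-27 cells expressed the proteoglycans at very unequal levels. BGN (biglycan), which binds collagen and signals to innate immune receptors when set free, made up most of the family's RNA. LUM (lumican), a keratan sulfate proteoglycan of collagen fibrils, and DCN (decorin), a collagen-binding proteoglycan that also binds TGF-β and receptor tyrosine kinases, followed, and FMOD (fibromodulin), a collagen-binding regulator of fibril assembly, was among the least abundant members. On the per-length scale of TPM (a transcript's length-corrected share of the library, as deposited), BGN stood at 203.5 and 202.5 in the control libraries and at 188.0 and 198.9 in the knockdown libraries. LUM followed at 48.6 and 35.2 in controls and 41.2 and 27.9 in knockdown, and DCN at 31.3 and 27.2 in controls and 33.0 and 30.0 in knockdown. BGN therefore exceeded every other member in each library, while the ranges of LUM and DCN over the 4 libraries overlapped.

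The next levels were those of OGN (osteoglycin, also named mimecan), a proteoglycan of bone and connective tissue, with a control mean of 12.9 TPM. ASPN (asporin), a collagen- and TGF-β-binding relative of decorin, had 3.76 TPM and OMD (osteomodulin), a keratan sulfate proteoglycan of mineralized tissue, 2.40. PRELP, a heparin-binding member that anchors basement membrane to collagen, had 1.20 TPM and FMOD 1.02. PODNL1 (podocan-like 1) had 0.638 TPM and PODN (podocan) 0.0159. In the control libraries the neighbours PRELP and FMOD overlapped, and every other pair of neighbours in this order was separate. Over all 4 libraries, the pairs LUM and DCN, ASPN and OMD, PRELP and FMOD, and FMOD and PODNL1 overlapped. The order of the 10 genes was the same with TMM-scaled CPM per kilobase of exon. The deposited FPKM also gave this order, but it was bound to, because within a library it differs from TPM only by a constant factor.

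**Figure D1:**
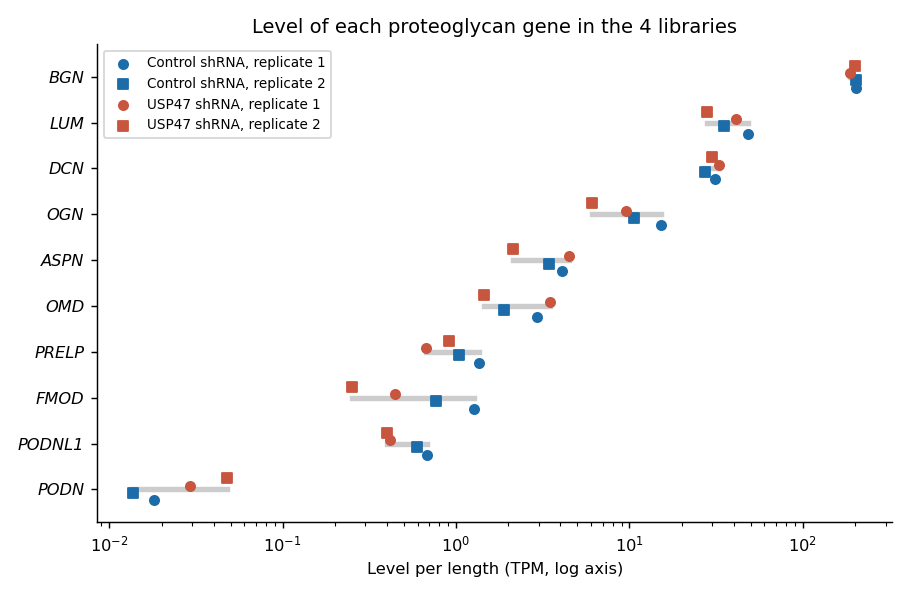
Level per length of the 10 genes in each of the 4 libraries, in TPM on a log axis; points are libraries and the grey line spans lowest to highest. BGN sits near 203 TPM and PODN near 0.0159 in the control libraries.

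Set against the 21932 tested genes, the control level of BGN was above 98.9% of them, that of LUM above 93.9% and that of DCN above 90.5%. FMOD stood above 14.7%, among the less abundant genes that could be tested. BGN alone supplied 68.7% of the family's summed TPM in controls and 70.5% in knockdown, LUM 14.1% and 12.5%, and DCN 9.88% and 11.5%. The summed TPM of the 10 genes was 308.9 and 283.3 in controls and 281.3 and 268.2 in knockdown, with both knockdown sums below both control sums on this scale. In TMM-scaled CPM the sums were 673.5 and 687.9 in controls and 627.7 and 785.0 in knockdown, with USP47 shRNA replicate 2 the highest library, so the family sum had no direction that held on both scales. Per-length values depend on the gene model: the exons of DCN span 12941 bases in GENCODE but the deposited values imply 8083, and those of OMD span 4324 and imply 2449.

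After USP47 knockdown, 2 of the 9 tested members were lower, FMOD and OGN, and none was higher by edgeR's quasi-likelihood test at an adjusted p under 0.05. Over all tested genes 9.56% were called lower and 6.52% higher. At an unadjusted p under 0.05 the counts were again 2 lower and 0 higher, and DESeq2 called 1 lower and 0 higher. The median log2 fold change of the 9 members was -0.17, against -0.0083 over all tested genes, with 6 of the 9 below 0 and 11144 of all tested genes below 0. In 3 members both USP47 shRNA values were below both control values in CPM (FMOD, OGN and PODNL1), as in 31.7% of all tested genes. In 1 (DCN) both were above, as in 29.3%. On the TPM scale BGN and PRELP were also below, and DCN overlapped. The share over all genes was not computed on that scale. In bulk RNA, fewer cells that express a gene and less RNA per cell cannot be told apart.

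FMOD was the member with the largest fall. Its counts were 49 and 39 with control shRNA and 21 and 11 with USP47 shRNA, or 2.89 and 1.99 CPM against 1.01 and 0.766. Both knockdown libraries were below both controls, at 41.4% and 31.4% of the control mean. The mean fell from 2.44 ± 0.637 to 0.888 ± 0.172 CPM (SD, n = 2 each), a log2 fold change of -1.41 ± 0.32 SE with a 95% interval from -2.12 to -0.70, and an adjusted p of 0.0163 by edgeR's quasi-likelihood test. FMOD was thus 2.66-fold lower, from few reads. Without control replicate 1 the change was -1.13 and FMOD was not called. The spread in that fit came from the USP47 shRNA libraries alone, and fewer genes over all were called. With all 4 libraries DESeq2 gave FMOD an adjusted p of 0.0736. The study measured FMOD, along with MMP2, PDGFRB and THY1, by RT-qPCR as an epithelial-mesenchymal transition gene to check this RNA-Seq experiment. The choice of these genes is therefore not independent evidence. The paper describes the transition genes measured this way, FMOD among them, as downregulated after USP47 knockdown. Those RT-qPCR values were not examined here.

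OGN fell less, and from a higher level. Its counts were 586 and 541 in controls and 457 and 268 in knockdown, which is 34.6 and 27.6 CPM against 22.0 and 18.7. Here too the groups did not overlap, and the knockdown libraries held 70.7% and 60.1% of the control mean. The means were 31.1 ± 4.93 and 20.3 ± 2.34 CPM (SD, n = 2 each), a log2 fold change of -0.61 ± 0.16 SE (95% interval -0.96 to -0.26) with an adjusted p of 0.028 by edgeR's quasi-likelihood test, or 1.52-fold lower. Without control replicate 1 the change was -0.44 and OGN was not called, again with the spread from the USP47 shRNA libraries alone. With library size as the only scaling the adjusted p was 0.0562 by the same test.

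**Figure D2:**
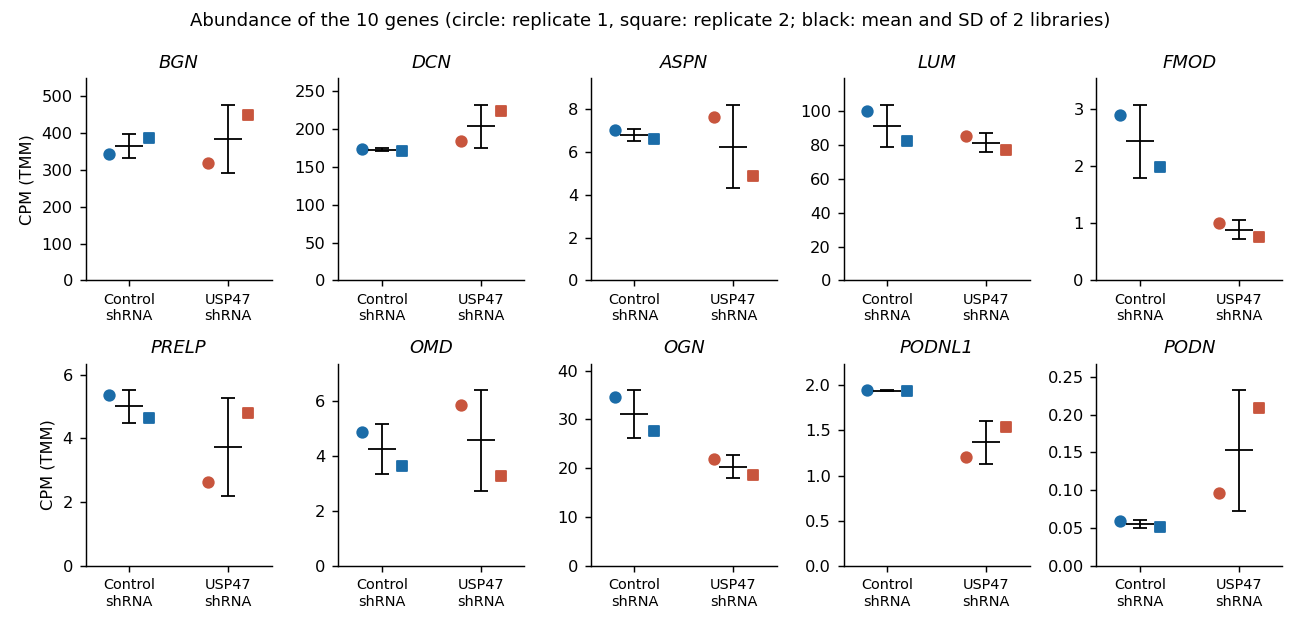
TMM-scaled CPM of the 10 genes, control shRNA in blue and USP47 shRNA in red (circle replicate 1, square replicate 2), with mean and SD of 2 libraries in black. FMOD goes from 2.44 to 0.888 CPM and OGN from 31.1 to 20.3 CPM, with no overlap between the groups.

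Among the abundant collagen-binding members, no change was called. LUM was at 100.3 and 82.6 CPM in controls and at 85.4 and 77.4 in knockdown, with overlapping groups and a log2 fold change of -0.17 (95% interval -0.48 to 0.14, adjusted p = 0.439). BGN was at 342.7 and 387.3 CPM in controls and at 318.1 and 449.7 in knockdown. The knockdown libraries of BGN lay on either side of the controls in CPM and below both in TPM (log2 fold change 0.07, 95% interval -0.32 to 0.46, adjusted p = 0.811). DCN was at 173.9 and 171.5 CPM in controls and at 183.8 and 223.8 in knockdown. Its knockdown libraries were both above the controls in CPM and overlapped them in TPM (log2 fold change 0.24, 95% interval -0.07 to 0.55, adjusted p = 0.269). All p-values here are from edgeR's quasi-likelihood test. Each interval lay within 0.55 of 0 on the log2 scale, and the p-values do not show that these genes were alike in both groups. Without USP47 shRNA replicate 1, the log2 fold changes were 0.31 for BGN and 0.38 for DCN. Both were then called higher, but the spread in that fit came from the control libraries alone, and more genes over all were called. The sign of BGN was negative without USP47 shRNA replicate 2 (-0.19), without control replicate 1 (-0.013) and with library size as the only scaling (-0.0098).

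ASPN and OMD, which lie beside OGN on chromosome 9, varied more between the 2 knockdown libraries than between groups. ASPN was at 7.02 and 6.63 CPM in controls and at 7.65 and 4.88 in knockdown. OMD was at 4.89 and 3.62 CPM in controls and at 5.87 and 3.28 in knockdown. In both genes USP47 shRNA replicate 1 was the highest of the 4 libraries and replicate 2 the lowest. The log2 fold changes were -0.10 for ASPN (95% interval -0.58 to 0.38, adjusted p = 0.790) and 0.14 for OMD (-0.47 to 0.76, adjusted p = 0.756) by edgeR's quasi-likelihood test, and the sign turned without USP47 shRNA replicate 2 in ASPN (0.17) and without control replicate 2 (-0.074) or USP47 shRNA replicate 1 (-0.36) in OMD.

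PRELP and PODNL1 had few reads and wide intervals. PRELP was read 91 and 91 times in controls and 55 and 69 times in knockdown, or 5.37 and 4.64 CPM against 2.65 and 4.81. The groups overlapped in CPM but not in TPM, at 1.36 and 1.035 in controls and 0.667 and 0.908 in knockdown. Its log2 fold change was -0.46 (95% interval -1.06 to 0.13, adjusted p = 0.262 by edgeR's quasi-likelihood test). Without USP47 shRNA replicate 2 the change was -0.91, in a fit whose spread came from the control libraries alone. Without USP47 shRNA replicate 1 it was -0.043, so the value of PRELP rests on that library. PODNL1 was read 33 and 38 times in controls and 25 and 22 times in knockdown, or 1.95 and 1.94 CPM against 1.20 and 1.53, without overlap. Its log2 fold change was -0.53 (95% interval -1.14 to 0.09, adjusted p = 0.216 by edgeR's quasi-likelihood test). The intervals of PRELP and PODNL1 are the only 2 among the 7 members not called that reach a change of 1 on the log2 scale. PODN was read 1 and 1 times in controls and 2 and 3 times in knockdown, too few to test: the ratio of the summed counts, knockdown over control and allowing for library totals, was 2.50, with an exact 95% counting interval from 0.410 to 26.3.

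**Figure D3:**
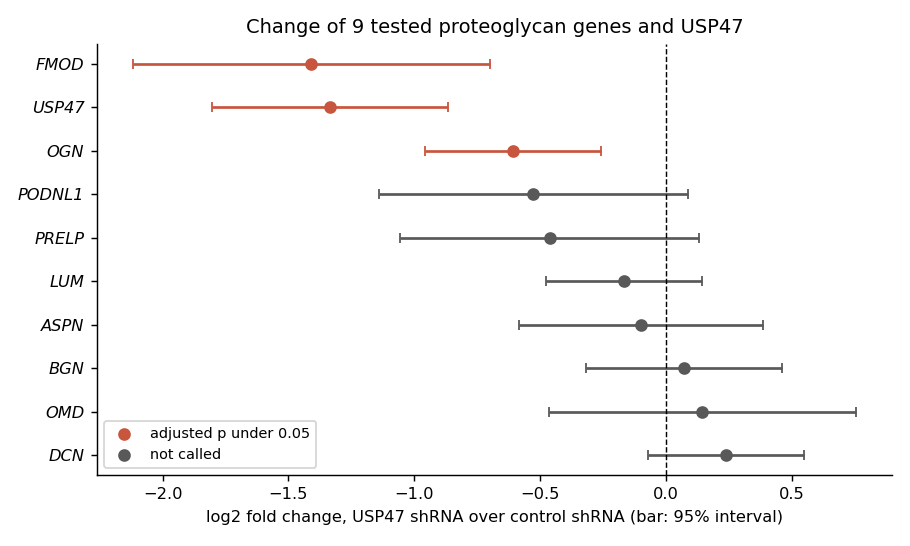
Log2 fold change, USP47 shRNA over control shRNA, of the 9 tested members and USP47, with the 95% interval as a bar and genes with an adjusted p under 0.05 in red. FMOD at -1.41 and OGN at -0.61 are the members whose intervals lie below 0 and that were called.

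The members lie in clusters, which allows neighbours to be set side by side. Positions are on GRCh37 with GENCODE gene models. FMOD (1:203309756-203320886, minus strand) lies 124 kb from PRELP (1:203444934-203460480, plus strand), and OPTC (opticin), another family gene that was not among the 10, lies 2.80 kb beyond PRELP. OPTC was read 59 and 53 times in controls and 19 and 21 times in knockdown. Its log2 fold change was -1.41 ± 0.30 SE with an adjusted p of 0.0125 by edgeR's quasi-likelihood test. In this cluster FMOD and OPTC were called lower, as were 9.56% of all tested genes, and PRELP between them was not called. On chromosome 9, OGN (9:95145550-95166978), OMD (9:95174662-95186753) and ASPN (9:95218487-95244788) share the minus strand with gaps of 7.68 and 31.7 kb, and OGN alone was called. On chromosome 12, LUM (12:91496406-91505271) and DCN (12:91534261-91576994) lie 29.0 kb apart on the minus strand and neither was called. The other members were BGN (X:152760438-152775004, plus strand), PODN (1:53527724-53551173, plus strand) and PODNL1 (19:14042000-14064204, minus strand).

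The 3 genes on chromosome 9 sit within CENPP, a centromere protein gene on the opposite strand with 434 to 742 counts, and shared 0 exon bases with it. PODNL1 shared 190 exon bases (4.56% of its exons) with DCAF15 on the opposite strand, which had 805 to 1069 counts. The labels name a stranded kit and the methods another kit, and whether strand was used in counting is not stated, so for PODNL1 reads of the partner cannot be told apart. USP47 shared 5681 exon bases (41.4% of its exons) with genes on the opposite strand, of which DKK3 had 28 to 56 counts. Reads of these genes cannot be told apart for USP47 either. Of 14 listed genes beside or around these loci, 9 were tested, 2 lower and none higher by edgeR's quasi-likelihood test. The lower genes were OPTC, counted already in its cluster, and ATP2B3, a calcium pump gene (-0.66, adjusted p = 0.0207 by the same test). At an unadjusted p under 0.05, 3 were lower and 0 higher, and by DESeq2, 2 and 0. Without either control library 1 was lower, OPTC. NOL8, the most abundant of them, changed by -0.06.

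**Figure D4:**
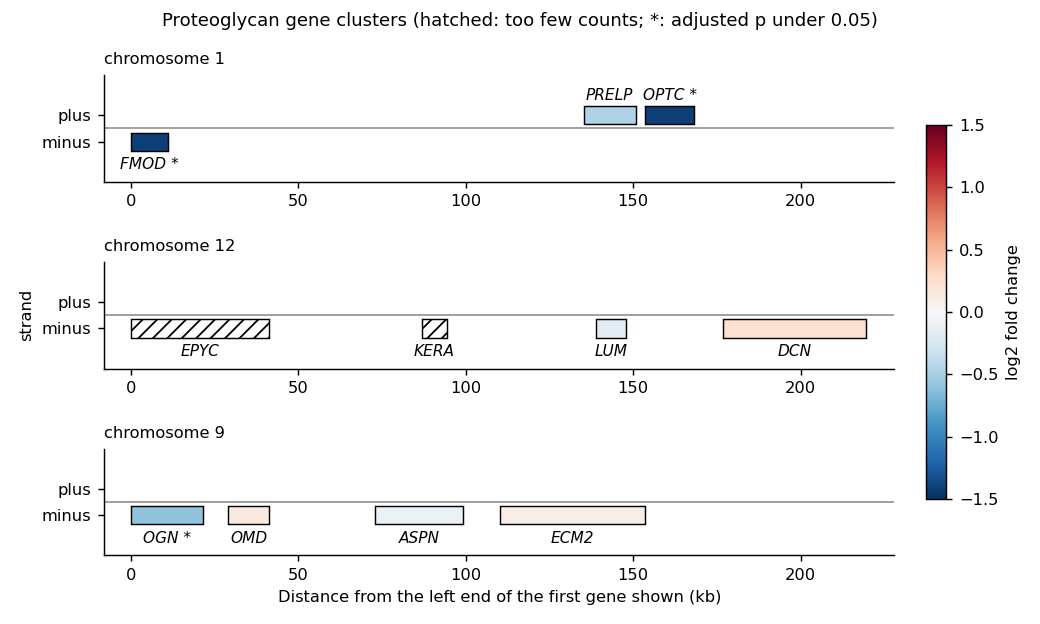
Members and family neighbours in 3 gene clusters, drawn to scale in kb from the left end of each cluster, with the strand on the vertical axis and colour giving the log2 fold change; hatched genes had too few counts. FMOD and OPTC share a fold change of -1.41, whereas OMD and ASPN beside OGN were not called.

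Of 9 further family genes, 8 were found and 5 tested, with 1 lower and none higher by edgeR's quasi-likelihood test. The lower gene was OPTC, counted already above. At an unadjusted p under 0.05, 2 were lower and 0 higher, and by DESeq2, 1 and 0. The median log2 fold change was 0.10. TSKU (tsukushi), the most abundant, changed by 0.24 (adjusted p = 0.319). KERA (keratocan), EPYC (epiphycan) and NYX (nyctalopin), genes of cornea, cartilage and retina, had at most 1 count in any library.

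Enzymes that build the sugar chains moved in both directions. Of 22 listed genes for chondroitin and dermatan sulfate synthesis 18 were tested, 2 lower and 2 higher (by DESeq2, 1 and 2; at an unadjusted p under 0.05, 4 and 3), with a median of -0.07. Leaving out 1 library gave 1 to 7 lower (7 without USP47 shRNA replicate 2) and 0 to 6 higher (0 without control replicate 1, 6 without USP47 shRNA replicate 1). CHST14, the sulfotransferase specific to dermatan sulfate, was at 14.0 and 14.5 CPM in controls and at 5.67 and 8.43 in knockdown (log2 fold change -1.04 ± 0.20 SE, adjusted p = 0.00767), and DSE, an epimerase that turns chondroitin into dermatan sulfate, fell from 33.8 ± 0.511 to 24.8 ± 1.42 CPM (-0.45 ± 0.13 SE, adjusted p = 0.0428). CHPF2, a chondroitin polymerizing factor, rose from 34.4 ± 4.82 to 63.5 ± 12.4 CPM (0.88, adjusted p = 0.00732), and B3GAT3, which completes the linker that joins chain to core protein, rose by 0.54 (adjusted p = 0.0313). FAM20B, the most abundant of this list, changed by -0.11 (adjusted p = 0.570). Of 11 genes for keratan sulfate synthesis and tyrosine sulfation 6 were tested, and none was called by edgeR's quasi-likelihood test or by DESeq2 (1 lower and 0 higher at an unadjusted p under 0.05, median -0.02). B4GALT1, the most abundant, changed by -0.25 (adjusted p = 0.305).

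Collagens that the proteoglycans bind, and enzymes that cross-link them, numbered 19, of which 18 were tested, 5 lower and 1 higher, with a median of -0.22 (by DESeq2, 4 and 2; at an unadjusted p under 0.05, 5 and 4). Leaving out 1 library gave 3 to 8 lower (3 without either control library, 8 without USP47 shRNA replicate 2) and 0 to 5 higher (0 without control replicate 1, 5 without USP47 shRNA replicate 1). LOXL3, a lysyl oxidase that cross-links collagen, fell from 11.1 to 4.67 CPM (log2 fold change -1.24, adjusted p = 0.00180). COL6A2 changed by -0.75 (adjusted p = 0.0157) and COL1A2 by -1.23 (adjusted p = 0.0222). COL5A1, a chain of the collagen that nucleates fibrils, rose from 284.6 to 525.5 CPM (0.88, adjusted p = 0.00478). COL3A1, the most abundant, changed by 0.30 (adjusted p = 0.274). These p-values and those of the next lists are also from edgeR's quasi-likelihood test.

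Growth factors and receptors that the proteoglycans bind comprised 21 genes, of which 18 were tested, 4 lower and 2 higher (by DESeq2, 2 and 2; at an unadjusted p under 0.05, 6 and 3), with a median of -0.19. Each call named from this list was lost without either control library, where fewer genes over all were called as well. The lower genes with the smallest p were ERBB4 (-0.72, adjusted p = 0.00829), EGFR (-0.85, adjusted p = 0.0162), and MET, the receptor of hepatocyte growth factor (-0.53, adjusted p = 0.0298), all receptor tyrosine kinases. TGFB3, a TGF-β ligand, rose by 0.67 (adjusted p = 0.00801) and TGFBR1, a TGF-β receptor, by 0.42 (adjusted p = 0.0487). ITGB1, an integrin chain and the most abundant of the list, changed by -0.09 (adjusted p = 0.688). The Toll-like receptors TLR2 and TLR4, through which soluble biglycan signals, had at most 4 counts in any library and were not tested.

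Among proteases that cut the core proteins, 9 of 11 were tested, 2 lower and 1 higher (at an unadjusted p under 0.05, 4 and 1), with a median of -0.23. Leaving out 1 library gave 2 to 6 lower (6 without USP47 shRNA replicate 2), and the 1 higher was lost without either control library. MMP2 (gelatinase A) fell from 30.2 to 13.6 CPM (log2 fold change -1.16, adjusted p = 0.00326) and ADAMTS5, an aggrecanase, from 12.3 to 5.67 CPM (-1.14, adjusted p = 0.00452). BMP1, which removes the propeptide of biglycan and of fibrillar collagens, rose by 0.57 (adjusted p = 0.0308). MMP14, the most abundant, changed by -0.16 (adjusted p = 0.593). Other proteoglycan core proteins numbered 22, of which 18 were tested, 4 lower and 1 higher (at an unadjusted p under 0.05, 4 and 3), with a median of -0.19. Leaving out 1 library gave 3 to 6 lower and 0 to 4 higher (0 without either control library, 4 without USP47 shRNA replicate 1). GPC2 (glypican-2) fell by 1.18 on the log2 scale (adjusted p = 0.00116), HSPG2 (perlecan) by 0.80 (adjusted p = 0.00449) and SDC1 (syndecan-1) by 0.80 (adjusted p = 0.00532), while SDC4 (syndecan-4) rose by 0.74 (adjusted p = 0.0134). AGRN (agrin), the most abundant, changed by 0.11 (adjusted p = 0.646).

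Markers of other cell types were read beside these changes, because the label is a carcinoma line and the members are usually stromal. Of 12 epithelial markers, 7 were tested, with a summed level of 24.9 and 25.2 CPM in controls and 31.0 and 26.3 in knockdown, mainly from MUC1, an epithelial mucin. The keratin genes KRT18 and KRT19 had at most 1 count in any library, KRT8 10 to 19 and EPCAM 3 to 12, while CDH1 (E-cadherin) had 8 to 28, CLDN3 11 to 26, CLDN4 41 to 77, CLDN18 43 to 66 and MUC1 244 to 470. The remaining markers KRT7, KRT20 and TFF1 had 0 to 10. Thus 4 of the 12 stayed under 10 counts in every library, and several others were read as often as FMOD or more. EPCAM was called lower (log2 fold change -1.84, adjusted p = 0.0416), but not by DESeq2 and not without either control library or USP47 shRNA replicate 1. The 12 fibroblast and stromal markers, of which COL1A1, COL1A2 and COL3A1 are also in the collagen list, were all tested, and their sum was 3658 and 3693 CPM in controls and 3253 and 4149 in knockdown. In this list 7 genes fell and 1 rose, with a median of -0.68 (by DESeq2, 5 and 1; at an unadjusted p under 0.05, 7 and 2). Without either control library 4 were lower and none higher. THY1, a surface glycoprotein of fibroblasts, changed by -2.14 (adjusted p = 0.00047) and PDGFRB, a PDGF receptor, by -2.06 (adjusted p = 0.000535), and PDGFRA, its relative, by -0.63 (adjusted p = 0.0131), whereas the smooth muscle gene TAGLN rose by 0.83 (adjusted p = 0.0148). Of 8 immune markers 4 were tested, at a sum of 6.55 to 9.26 CPM, and of 6 endothelial markers 1 was tested, at a sum of 1.39 to 1.65 CPM with KDR, a VEGF receptor, the most abundant. None of either list was called by edgeR's quasi-likelihood test, at an unadjusted p under 0.05 or by DESeq2. The part of the stromal genes' change in the change of FMOD and OGN was not tested.

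The 3 tested genes whose centred log2 CPM over the 4 libraries lay nearest to that of FMOD were B3GALNT1 (distance 0.0950), a glycosyltransferase gene with 3.60 and 2.45 CPM in controls and 1.35 and 1.05 in knockdown, ENSG00000233799 (0.109) and H1-10-AS1 (0.119). OGN was the nearest member, at a distance of 0.751. With 4 libraries these distances describe a pattern and carry no test.

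**Figure D5:**
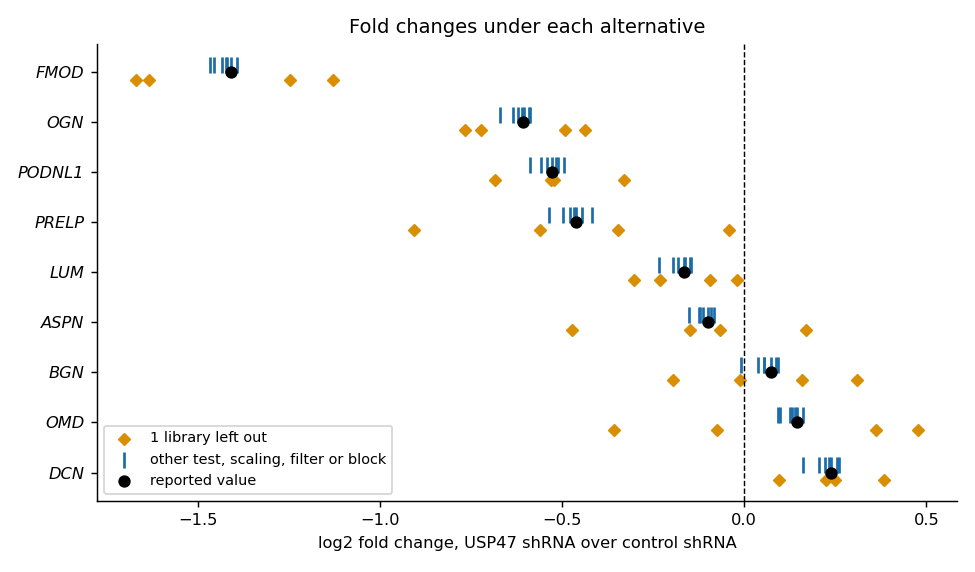
Log2 fold change of each tested member as reported (black), with 1 library left out (orange) and with another test, scaling, filter or block (blue). FMOD stays between -1.67 and -1.13 and OGN between -0.77 and -0.44, whereas BGN, OMD and ASPN lie on both sides of 0.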

How the data were processed

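RNA-Seq libraries from 2 control shRNA and 2 USP47 shRNA samples of HGC-27 cells were compared. The authors deposited, per library, raw counts per gene together with FPKM and TPM. Per the study's methods, reads were trimmed, aligned with STAR 2.7.5c to hg19 and stripped of duplicates with SAMtools 1.9, which lowers high counts where reads carry no molecular identifiers. The submitters' processing notes also name featureCounts, Picard 2.23.3 and DESeq2 1.26.0, and list mm10 beside hg19. The annotation and strand setting of the counting are not given in the sources used here. The methods speak of triplicates, whereas 2 libraries per group were analysed here.

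Counts were tested in R 4.3.3 with edgeR 4.0.16 (TMM, filterByExpr, glmQLFit with robust estimation, glmQLFTest, two-sided) and adjusted by Benjamini-Hochberg over all 21932 tested genes. CPM are TMM-scaled, and TPM and FPKM are the authors' values. Alternatives were DESeq2 1.42.0, older edgeR settings, other scalings and filters, a replicate block, a least log2 change of 1 in size and leaving out each library. The scripts were tested on simulated data. The members and gene lists were chosen with earlier results of these data known. Genes named were the 10 members, USP47, from each list up to 3 lower and 3 higher genes with the smallest p plus the most abundant, and the 3 nearest to FMOD; 1 gene under this rule is not reported here. KERA, EPYC, NYX, the epithelial markers other than EPCAM and MUC1, COL1A1, TLR2, TLR4, CENPP, DCAF15 and DKK3 were named outside this rule, after their values were seen. Counting intervals cover counting error only.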

Additional observations from a re-analysis of the deposited data

How the results depend on the processing

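Calls rest on 2 libraries a group and, for FMOD, on 11 to 49 reads. The 2 members called lower became 1 with DESeq2 (OGN), 1 with library size as the only scaling (FMOD) and 1 when a log2 change of at least 1 in size was also asked for (FMOD). Leaving out 1 library, which assumes that the lone library of its group varies like the other group, gave 0 to 3 members lower and 0 to 2 higher, against 0 higher as reported. None was lower without control replicate 1. PRELP (-0.91) joined without USP47 shRNA replicate 2, and BGN and DCN were called higher without USP47 shRNA replicate 1. Without either USP47 shRNA library the number of all genes called also rose, so these added calls are not particular to the members. Without either control library the number of all genes called fell, so the loss of calls there is not particular to the members or lists. Over all genes, the 2097 called lower became 1174 with DESeq2, 889 with that minimum change and 907 to 3576 with 1 library left out. The 1430 called higher became 881 with library size alone, 327 with that minimum change and 323 to 3770 with 1 library left out. Library size alone moved the median of all genes to -0.072. USP47 stayed between -1.75 and -1.01 with 1 library left out. With 1 library left out BGN lay between -0.19 and 0.31, ASPN between -0.47 and 0.17 and OMD between -0.36 and 0.48. Signs turned for BGN (-0.0098 with library size alone, -0.013 without control replicate 1, -0.19 without USP47 shRNA replicate 2), ASPN (0.17 without USP47 shRNA replicate 2) and OMD (-0.074 without control replicate 2, -0.36 without USP47 shRNA replicate 1). The causes were not tested. Of 288 recomputed counts of called genes in lists, 212 stayed within 1.5 times. That number includes lists with 0 genes called both times, such as the endothelial markers, so it does not measure how far the other counts held.

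The replicate numbers are shared by both groups, and the deviations of same-numbered libraries correlated at 0.213, but with 2 pairs and no label of a shared batch the libraries share only a number. With the replicate block, 3892 genes were lower and 3530 higher, of the collagen list 6 were lower and 5 higher, FMOD and OGN were still the members called, and PRELP (adjusted p = 0.0641) and DCN (adjusted p = 0.0830) were not called by edgeR's quasi-likelihood test.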
